A study of Oryza sativa with 36 samples.

Results

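Hd3a is the florigen gene of rice, read here by 1 probe set, Os.13026.1.S1_at, of the 57194 rice probe sets on the array. It was chosen by its measured intensity in these arrays, which in leaves depended on the stage of the plant and on drought, so its own levels and changes are given below as a description, with no test. The samples came from DK151, a drought-tolerant line derived from the variety IR64, grown in a greenhouse with 1 plant per pot, and all 36 arrays are of this 1 line. For drought, pots were unplugged to run dry, and plants were harvested once midday leaf rolling was complete, with 65 to 75% relative water content in the leaf. Booting plants came to this point soonest. There were 12 groups of 3 arrays, each array from an individual plant: drought and control leaves of 3 stages (tillering, then panicle elongation, then booting), drought and control roots of the first 2 stages, and drought and control young panicles of booting.

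Florigen is a small protein made in the phloem of the leaf blade that moves to the shoot apex, where it binds 14-3-3 proteins and the transcription factor FD1 and switches on the AP1/FUL-like MADS box genes that turn the apex to flowering. In rice, Hd3a transcription in leaves is raised by Hd1 in short days and by Ehd1, and both routes are set by the circadian clock and the phytochromes. Hd1 turns into a repressor of Hd3a in long days, when DTH8 and PRR37 also act as repressors.

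Hd3a was high in control leaves at panicle elongation and booting and low in all 10 other groups. The values are intensities of the deposited, already normalized table, a linear scale with no absolute unit, on which the median over all rice probe sets and arrays was 59.8 and the 25th percentile 28.3. The 3 plants gave 71.7, 37.0 and 36.7 in control leaves at tillering, 950.0, 794 and 1067 at panicle elongation, then 1685, 1358 and 1715 by booting. Each stage lay wholly above the one before it, and the largest step was the first.

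In drought leaves the same probe set read 23.0, 30.2 and 21.3 in tillering plants, 15.7, 16.6 and 20.0 in panicle elongation plants, and 26.5, 59.9 and 29.4 in booting plants. No drought leaf reached even the lowest control leaf of its own stage. The stage order of the controls was absent: the lowest drought leaves were those of panicle elongation, which lay wholly below drought leaves of the other stages, and the tillering and booting drought leaves overlapped.

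In roots Hd3a read 17.0, 16.3 and 19.0 under drought and 22.1, 21.2 and 22.6 in controls at tillering, and 17.6, 17.8 and 16.8 under drought and 20.1, 23.8 and 22.9 in controls at panicle elongation. In young panicles it read 19.4, 24.4 and 19.1 under drought and 34.4, 27.5 and 26.2 in controls. All 18 root and panicle values, 16.3 to 34.4, were within the lowest part of the array's scale and below every control leaf, whatever the stage. Detection calls were not used here, so whether these low readings are above background is not known.

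**Figure D1:**
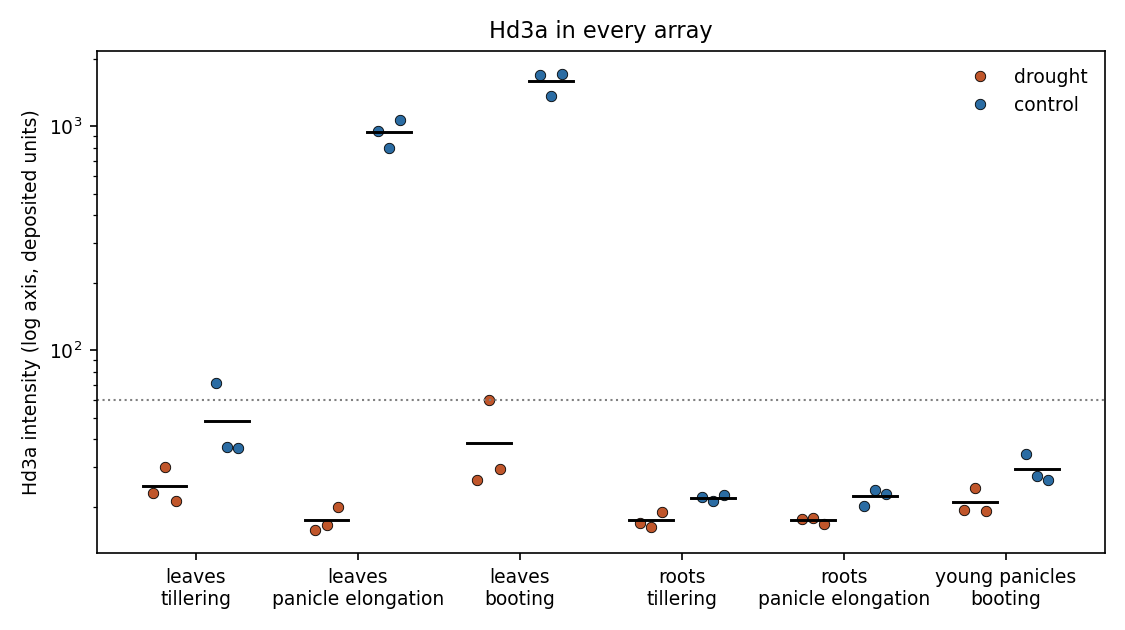
Intensity of the Hd3a probe set (log axis, deposited units) in each of the 36 arrays, by tissue and stage, with drought left of control; points are arrays, black bars group means of 3 arrays, and the dotted line is the median of all values, 59.8. The 6 control leaf arrays of panicle elongation and booting, 794 to 1715, stand apart from the other 30, which lie between 15.7 and 71.7.

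Ordered by mean, the 12 groups ran as follows. Control leaves at booting came first with 1586 ± 198, control leaves at panicle elongation second with 937 ± 137 and control leaves at tillering came after them with 48.5 ± 20.1 (SD, n = 3 each). Drought leaves at booting, 38.6 ± 18.5, came next, ahead of control young panicles at 29.3 ± 4.39 and drought leaves at tillering at 24.8 ± 4.70. The remaining 6 groups, roots of both stages and conditions, drought young panicles and drought leaves at panicle elongation, had means between 17.4 and 22.3. Of the 11 pairs of neighbours in this order, 8 overlapped array for array, and the first 2 steps and the step between drought young panicles and drought roots at tillering did not.

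The drought differences, as drought minus control on the log2 scale with the standard error (SE) of the linear model, were -0.91 ± 0.23 in tillering leaves, -5.75 ± 0.23 in panicle elongation leaves and -5.45 ± 0.23 in booting leaves. As ratios of mean intensity, Hd3a was 1.95 times lower in drought leaves of tillering, 53.7 times lower in those of panicle elongation and 41.1 times lower in those of booting. The drought levels under these ratios may not be above background, and the sizes depend on how low values are treated: with 16 added to every value the log2 differences were -4.83 at panicle elongation and -4.92 at booting. Among the 57194 probe sets, 5879 had a more negative change at tillering, but only 38 had one at panicle elongation and 5 at booting. The change at booting differed from that at tillering by -4.55 ± 0.32 and from that at panicle elongation by 0.29 ± 0.32. Control leaves at tillering averaged 48.5 and the lowest group means were 17.4, so there was little room to read a larger fall at tillering.

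In the other tissues the differences were small: -0.34 ± 0.23 in tillering roots, -0.35 ± 0.23 in panicle elongation roots and -0.48 ± 0.23 in booting young panicles. Drought values lay wholly below control values in all 6 comparisons, a pattern that 30.8% of all probe sets shared in tillering leaves, 30.6% in panicle elongation leaves, 31.5% in booting leaves, 24.1% in tillering roots, 21.4% in panicle elongation roots and 26.8% in booting young panicles. Probe sets that were dim in both groups had median changes of only -0.09 to 0.03 in these comparisons. With values under the 25th percentile raised to it, the Hd3a difference was 0 in both root comparisons and -0.09 in young panicles.

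Among control leaves, panicle elongation minus tillering was 4.34 ± 0.23 and booting minus panicle elongation 0.76 ± 0.23 on the log2 scale, or 19.3 and 1.69 times by mean intensity. Only 3 probe sets had a larger rise over the first step, while 3016 had one over the second. Non-overlapping groups with the later stage higher were found for 9.03% of all probe sets over the first step and 15.4% over the second. Since whole leaves, roots and panicles were extracted, fewer cells of a type and less RNA per cell cannot be told apart in any of these differences.

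In 2 low groups 1 plant read well above the others. The control tillering plant with 71.7 was the highest of its stage, and without it the tillering drought difference was -0.59 and the step to panicle elongation 4.66. The booting drought plant with 59.9 was also the one with the smallest drought change in general: over 271 probe sets called higher under drought at both other leaf stages its median change was 3.36, against 3.89 and 3.71 in the other 2 plants. Without that plant the booting difference was -5.82. The part of drought severity in its reading was not tested.

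One library stood apart. Control leaves of panicle elongation, replicate 2, correlated less with the other plants of its group than any other array did with its own (lowest r 0.943, against 0.969 to 0.995 in the other 11 groups), and its clock genes were far from theirs. LHY, the morning clock transcription factor, read 6440 in it against 718 and 615, and LUX, an evening component, 70.8 against 1068 and 1050. Hd3a read 794 there against 950.0 and 1067, and without this array the panicle elongation drought difference was -5.86. Named genes whose calls were lost, or whose values moved by over 1.5 times, without this array have the value without it beside them. Depth has no counterpart on arrays, and array medians of the deposited values lay between 55.0 and 64.0 in all 36.

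Markers of panicles and roots, matched by symbol, set those tissues apart, and those of leaves did so less sharply. The summed level of 6 panicle markers, MADS box genes of the floret, was 16901 to 20445 in young panicles and 949 to 2971 in all leaves and roots, and that of 5 root transporters was 5469 to 18052 in roots and 148 to 1816 elsewhere. Leaf markers moved with drought beside Hd3a. The sum of 4 photosynthesis and photorespiration genes was 27336 to 28455 in drought against 39152 to 40167 in control leaves at tillering, 4997 to 6855 against 38655 to 44356 one stage later, and 13427 to 20520 against 35871 to 37354 at booting. Outside leaves it was 10213 to 12245 in drought against 14329 to 16107 in control young panicles and 193 to 7470 in roots. Drought leaves of panicle elongation thus lay below young panicles and above all root arrays but the highest. That array was a control of panicle elongation, and the next highest root array, of drought at tillering, read 3666. At panicle elongation 3 of the 4 were called lower at 5-fold in limma (6.18% of all probe sets called), and none of the 4 reached 5-fold at tillering (1.75%) or booting (1.9%), where 1 of 4 (13.8%) and 2 of 4 (11.8%) were called lower at 2-fold. Probe sets of the same genes other than the brightest did pass 5-fold there, 1 of the Rubisco small subunit gene RBCS2 at tillering (-2.36 ± 0.32) and booting (-2.40 ± 0.32) and 1 of the chlorophyll a/b binding protein gene CAB2R at booting (-2.56 ± 0.74). Of the 4, the glycine decarboxylase gene GDCSH changed most at panicle elongation (-7.27 ± 0.36), to a mean of 41.2 in drought leaves. Its root group means were 24.9 to 54.0. RBCS2 and CAB2R averaged 855 and 852 in those leaves, against root group means of 81.1 to 1880 and 58.2 to 1196. The Rubisco activase gene RCA, at 4174, stayed above its root group means of 37.2 to 255. Of the phloem markers, the sucrose transporter SUT1 was higher in drought than in control leaves at all 3 stages (1.69 ± 0.26 in tillering plants, 1.15 ± 0.26 in panicle elongation plants and 1.63 ± 0.26 in booting plants), and the sucrose synthase SUS1 was lower at tillering (-1.58 ± 0.33) and not called at the later stages (-0.76 ± 0.33 and 0.35 ± 0.33), although its other probe set was also called lower at panicle elongation (-1.04 ± 0.38). Their part in the Hd3a difference was not tested.

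The other genes of the flowering pathway were read from a list of 61, of which 30 could be paired with a probe set. Ehd1, Ghd7, FD1, ELF3-1 and the TFL1-like RCN genes were among the 31 not analysed here. One limma model was fitted to all 57194 probe sets, with a call at a Benjamini-Hochberg adjusted p under 0.05 and a change of 5-fold or more. In panicle elongation leaves 2 of 30 genes rose and 1 fell, against 6.18% of all probe sets called. In the other 5 drought comparisons 0 of 30 were called, with an unadjusted p under 0.05 and 5-fold again giving 0, against 1.75% in tillering leaves, 2.11% in tillering roots, 2.09% in panicle elongation roots, 1.9% in booting leaves and 1.65% in young panicles.

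At a 2-fold minimum more of the genes were called. In leaves 1 gene rose and 4 fell at tillering (13.8% of all probe sets called), 3 rose and 4 fell at panicle elongation (22.3%), while 3 rose and 2 fell at booting (11.8%). In roots 2 rose and 4 fell at tillering (10.4%) and 2 rose and 3 fell at panicle elongation (10.2%). In young panicles 1 gene, the 14-3-3 gene GF14c, fell and 0 rose (10.3%; 2 lower and 0 higher at an unadjusted p under 0.05). The median change over the 30 genes was 0.07 in tillering leaves, -0.13 in panicle elongation leaves and 0.11 in booting leaves, beside -0.08, -0.09 and -0.12 over all probe sets.

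**Figure D2:**
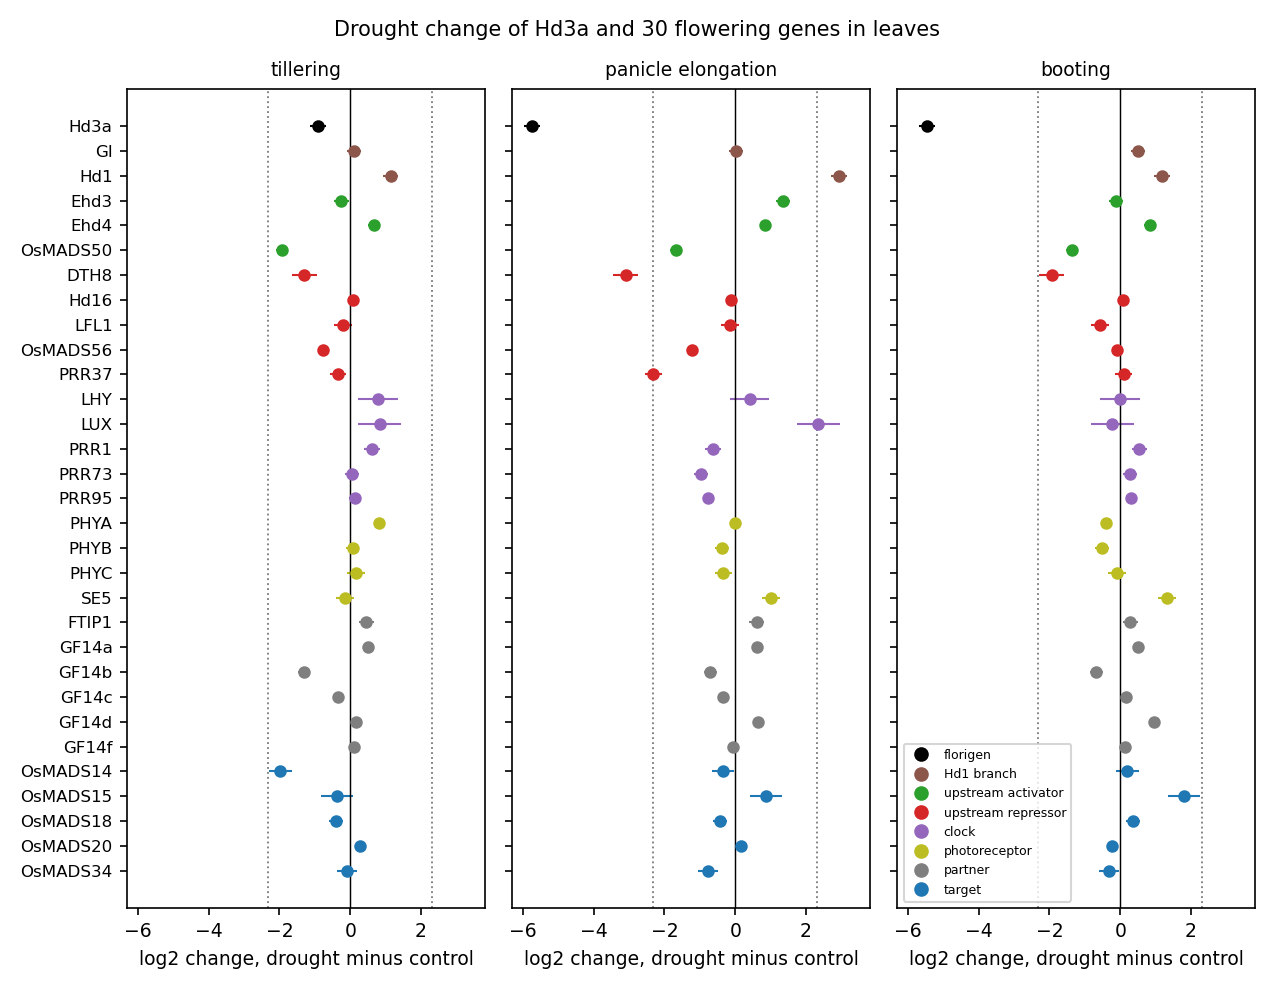
Drought minus control change (log2, points, with the SE of the model as bars) of Hd3a and 30 flowering genes in leaves of the 3 stages, coloured by role; dotted lines mark 5-fold. Hd3a lies at -5.75 and -5.45 in the middle and right panels, and the listed gene nearest to it is DTH8 at -3.09 in the middle panel.

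Hd1, the CONSTANS-like regulator directly upstream of Hd3a, was higher in drought leaves at all 3 stages. At tillering it read 31.3, 39.9 and 47.4 in drought leaves against 17.7, 16.8 and 18.7 in control leaves (1.14 ± 0.22, adjusted p = 0.000142). At panicle elongation it read 155, 126 and 154 in drought leaves against 19.0, 18.9 and 18.5 in control leaves, a rise of 2.94 ± 0.22 (adjusted p = 5.8e-12). At booting it read 108, 63.0 and 65.2 in drought leaves against 42.5, 26.0 and 34.4 in control leaves (1.18 ± 0.22, adjusted p = 0.000109). The groups did not overlap at any leaf stage, a pattern that 21.5% of all probe sets shared on the higher side in tillering leaves, 20.6% in panicle elongation leaves and 19.3% in booting leaves. Its control level was below the 25th percentile at tillering and panicle elongation, so the size of the change depends on how low values are treated, and with 16 added to every value it was 0.71 in tillering, 2.20 in panicle elongation and 0.89 in booting leaves, the first and last of these short of 2-fold, and with a floor at the 25th percentile it was 0.46 at tillering. The 2-fold call was also lost in tillering leaves without drought replicate 3 (0.997) and in booting leaves without drought replicate 1 (0.931) or control replicate 2 (0.995). GI, the clock output gene that activates Hd1, read 5764, 5662 and 5810 in drought against 6680, 3884 and 7029 in control leaves at panicle elongation and made no call in leaves at 2-fold.

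Of 3 measured activators OsMADS50 fell and Ehd3 rose. OsMADS50, a SOC1-like MADS box activator of flowering, fell in leaves at every stage: 223, 195 and 216 under drought against 707, 864 and 845 in controls at tillering (-1.93 ± 0.17), 99.3, 117 and 107 against 297, 452 and 294 in panicle elongation plants (-1.66 ± 0.17), and 133, 125 and 112 against 377, 234 and 357 at booting (-1.36 ± 0.17). It also fell in roots at tillering (-1.13 ± 0.17) and panicle elongation (-1.06 ± 0.17), calls lost without control replicate 2 of tillering (-0.998) and control replicate 3 of panicle elongation (-0.97), and in young panicles its difference was -0.40 ± 0.17, short of the 2-fold minimum. In control leaves OsMADS50 was lower at panicle elongation than at tillering (-1.24 ± 0.17) while Hd3a was higher. Ehd3, a PHD finger activator of Ehd1, rose at panicle elongation in leaves (1.35 ± 0.20) and roots (1.80 ± 0.20) and in tillering roots (1.14 ± 0.20), and read 332, 276 and 263 in drought against 370, 291 and 285 in control leaves at booting. Ehd4, a zinc finger activator of the same gene, made no 2-fold call under drought.

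Of 5 measured genes listed as repressors, 3 were lower in drought leaves at panicle elongation (22.3% of all probe sets called at 2-fold in either direction). DTH8, a HAP3 subunit of the nuclear factor Y complex, read 86.6, 75.6 and 78.7 in drought leaves against 310, 221 and 111 in control leaves at tillering (-1.29 ± 0.35, adjusted p = 0.00378). It read 16.02, 20.5 and 10.8 in drought leaves against 210, 53.5 and 195 in control leaves at panicle elongation (-3.09 ± 0.35, adjusted p = 1.9e-08), a fall of which the size rested on the array that stood apart, with -3.73 without it. At booting it read 76.4, 92.7 and 68.3 in drought leaves against 367, 237 and 310 in control leaves (-1.93 ± 0.35, adjusted p = 7.07e-05). Drought values were the lower ones at each stage with no overlap. Of all probe sets 30.8% shared this pattern in tillering leaves, 30.6% in panicle elongation leaves and 31.5% in booting leaves. Like Hd3a, DTH8 had its lowest leaf values in drought plants of panicle elongation, and its 5-fold call there was lost with 16 added to every value (-2.24) or with the floor (-2.20). The fall in tillering leaves missed the 2-fold minimum without control replicate 1 (-0.96).

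PRR37, a pseudo-response regulator, read 736, 548 and 639 in drought leaves against 3123, 3038 and 3383 in control leaves at panicle elongation (-2.32 ± 0.24, adjusted p = 2.77e-09), just short of 5-fold. At booting it read 1093, 1542 and 1476 in drought leaves against 1083, 784 and 2364 in control leaves, which overlapped. Its other probe set, dimmer on average, was called lower at 2-fold at all 3 leaf stages, without overlap (-1.43 ± 0.18 in tillering, -1.96 ± 0.18 in panicle elongation and -1.04 ± 0.18 in booting plants, where it averaged 489 in drought and 1002 in control leaves), so the 2 probe sets disagree at tillering and booting. In roots PRR37 rose by the brighter probe set, by 1.05 ± 0.24 at tillering and 1.37 ± 0.24 at panicle elongation. OsMADS56, a MADS box repressor, fell at panicle elongation (-1.22 ± 0.13) and read 1669, 1900 and 1766 in drought against 2066, 1712 and 1918 in control leaves at booting. The casein kinase Hd16 and the B3 factor LFL1 made no call at 2-fold in any drought comparison.

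By the probe set with the highest mean, Hd1, DTH8 and OsMADS50 of the 30 genes were called at 2-fold or more, each in 1 direction, at all 3 leaf stages, with the Hd1 calls of tillering and booting lost with 16 added. At 2-fold 13.8% of all probe sets were called in tillering leaves, 22.3% in panicle elongation leaves and 11.8% in booting leaves. The share called in 1 direction at all 3 stages was not counted. The difference of the Hd1 drought change between booting and panicle elongation was -1.76 ± 0.32 (adjusted p = 0.000109). The Hd3a differences at these stages, -5.45 and -5.75, rest on drought levels near the low end of the scale. Their order reversed with 16 added to every value, so they are not compared with those of Hd1.

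Among 5 genes listed for the clock, LUX rose in drought leaves at panicle elongation, with 2173, 1904 and 2542 against 1068, 70.8 and 1050 in control leaves (2.35 ± 0.61, adjusted p = 0.00197). Without control replicate 2 the difference was 1.05 (adjusted p = 0.0351), under the 5-fold minimum, without control replicates 1 and 3 in turn it was 3.01 and 2.99, without drought replicate 3 it was 2.24 and also under that minimum, and fitted on these groups alone the call was lost with all arrays (adjusted p = 0.112). In tillering roots LUX fell (-1.69 ± 0.61, adjusted p = 0.0378), a call lost in 5 of the 6 fits without 1 array (adjusted p 0.0763 to 0.143) and with the floor (adjusted p = 0.0541). By their brightest probe sets LHY, PRR1, PRR73 and PRR95 made no 2-fold call under drought, but the other probe set of PRR73 was called lower in leaves at tillering (-1.10 ± 0.25, adjusted p = 0.000584) and panicle elongation (-1.78 ± 0.25, adjusted p = 5.25e-07). Between control leaf stages only LHY and LUX of the 5 were called by their brightest probe sets, both at booting relative to panicle elongation. LHY read 213, 198 and 161 against 718, 6440 and 615 (-2.90 ± 0.55, adjusted p = 0.000296, and -1.81 without control replicate 2 of panicle elongation). LUX read 5464, 5192 and 5414 against 1068, 70.8 and 1050 (3.64 ± 0.61, adjusted p = 5.97e-05, and 2.34 without that array). Fitted on the compared groups alone, neither was called (adjusted p = 0.107 for LHY and 0.0919 for LUX). The other probe set of PRR73 was called lower at 2-fold over this step (-1.10, adjusted p = 0.00152). The hour at which each plant was sampled is not given in the sources used here, so a stage and an hour of sampling cannot be told apart for these genes, and Hd3a, PRR37 and GI are known to cycle through the day as well.

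In booting leaves LHY read 256, 154 and 170 under drought against 213, 198 and 161 in controls, and the conditions overlapped. LUX read 4834, 4291 and 4601 under drought against 5464, 5192 and 5414 in controls. Its drought values lay wholly below its controls, as in 31.5% of all probe sets, but its difference of -0.23 was not called. The part of the hour of sampling in the Hd3a differences was not tested. Of the phytochrome genes PHYA, PHYB and PHYC none was called at 2-fold under drought. SE5, the haem oxygenase that makes the phytochrome chromophore, rose at booting (1.33 ± 0.25).

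**Figure D3:**
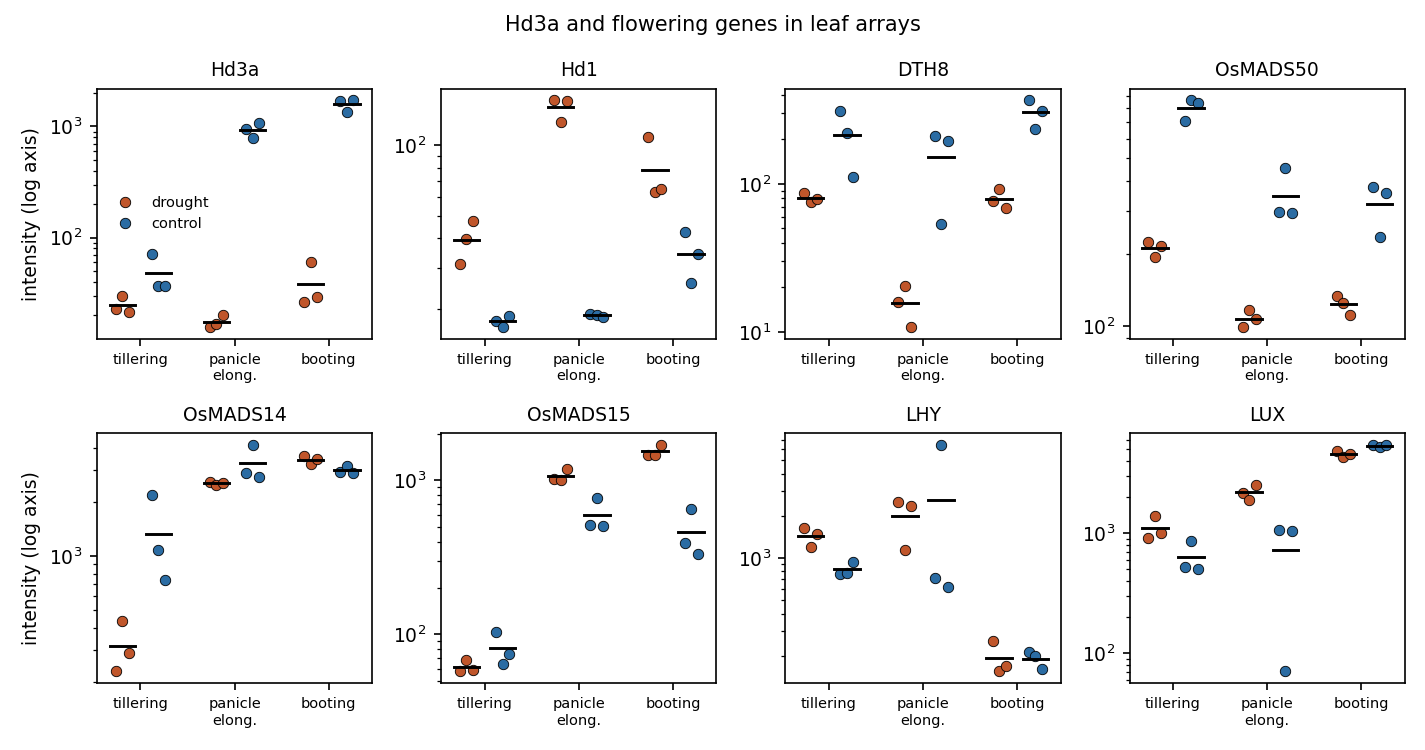
Intensity (log axis, deposited units, a scale of its own for each gene) of Hd3a, Hd1, DTH8, OsMADS50, OsMADS14, OsMADS15, LHY and LUX in the 18 leaf arrays, by stage, with drought left of control; points are arrays and bars group means. Hd1 is higher and DTH8 and OsMADS50 are lower in drought leaves at each stage, OsMADS15 is higher in drought leaves at booting, and 1 control plant of panicle elongation is apart in LHY and LUX.

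Of 6 measured partner genes of the florigen protein, 1 was called at 2-fold in drought leaves, at tillering (13.8% of all probe sets called). Of 5 measured 14-3-3 genes, whose proteins receive florigen in the cells of the apex, GF14b fell at tillering in leaves (-1.31 ± 0.17) and roots (-1.33 ± 0.17), and no other made a 2-fold call in leaves. FTIP1, which carries florigen out of the companion cells of the phloem, was not called in any tissue. In young panicles GF14c fell, at 2539, 2449 and 2452 under drought against 5286, 4708 and 5009 in controls (-1.01 ± 0.10), a call lost without control replicate 1 (-0.97), under quantile normalization (-0.86) and under median centring (-0.98).

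Of the targets, by the brightest probe set of each, OsMADS15 was called higher in drought leaves at booting, where Hd3a was lower. OsMADS14 was called lower at tillering, the direction of Hd3a, and was not called at the later leaf stages. OsMADS15, an AP1/FUL-like gene that florigen activates, read 57.5, 68.5 and 58.7 in drought against 104, 64.4 and 75.0 in control leaves at tillering. It read 1026, 1007 and 1179 in drought against 510, 766 and 508 in control leaves at panicle elongation (0.87 ± 0.45, not called). At booting it read 1465, 1468 and 1709 in drought against 394, 653 and 333 in control leaves, a rise of 1.81 ± 0.45 (adjusted p = 0.00206). The groups did not overlap at the last 2 stages, and in both the drought leaves, with Hd3a at 15.7 to 59.9, held the higher OsMADS15 values. Of all probe sets 20.6% shared this pattern on the higher side in panicle elongation leaves and 19.3% in booting leaves. Between control leaves OsMADS15 did move with Hd3a over the first step, by 2.88 ± 0.45 at panicle elongation relative to tillering (adjusted p = 7.14e-05), the 1 of 30 genes called there at 5-fold (0.252% of all probe sets). At 2-fold OsMADS14 rose as well (1.42 ± 0.32, lost without control tillering replicate 3 at 1.07) and OsMADS50 fell (2.91% of all probe sets).

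OsMADS14, the sister gene, was called in drought leaves at tillering alone by its brightest probe set. At tillering it read 229, 434 and 291 in drought leaves against 2172, 1081 and 740 in control leaves (-1.97 ± 0.32, adjusted p = 1.23e-05), and 2 of its 3 other probe sets passed 5-fold there (-2.71 and -2.41, with -1.07 not called in the other, which was called higher at booting, 1.64 ± 0.51, adjusted p = 0.0123). At panicle elongation it read 2575, 2482 and 2542 against 2899, 4162 and 2765, and at booting 3595, 3254 and 3453 against 2942, 3146 and 2889, neither of them called. Drought values lay wholly below control values at panicle elongation (as in 30.6% of all probe sets) and wholly above them at booting (19.3%). The OsMADS14 drought change was 2.17 ± 0.45 higher at booting than at tillering (adjusted p = 0.00149). That of Hd3a was lower by the 4.55 given above, a size bounded by the low Hd3a level of control tillering leaves. The control tillering plant with the highest Hd3a, 71.7, also had the highest OsMADS14, 2172, and the highest OsMADS15, 104, of its 3 plants, a reading picked out after the values were seen.

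OsMADS18, another gene of this group, was called in panicle elongation roots alone among the drought comparisons (-1.15 ± 0.20), where OsMADS14 also fell (-1.22 ± 0.32). OsMADS34, which acts with the AP1/FUL-like genes in the apex, was higher in control leaves at booting than at panicle elongation (1.79 ± 0.28) and was not called under drought. OsMADS20 made no call. In young panicles OsMADS14 read 2423, 2576 and 2458 under drought and 1514, 1641 and 1534 in controls and OsMADS15 2642, 2972 and 3079 under drought and 4275, 4014 and 3721 in controls, both under the 2-fold minimum, although 2 other probe sets of OsMADS14 rose there (1.34 and 1.203).

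Over the second control step, booting minus panicle elongation, 1 of 30 genes rose at 5-fold, LUX, and 1 fell, LHY (1.27% of all probe sets called). At 2-fold 4 rose and 3 fell (7.66%), with the calls of DTH8 and PHYC lost without control replicate 2 of panicle elongation (0.57 for each), that of DTH8 also without control booting replicate 1 (1.06, adjusted p = 0.0696), that of PRR37 without control booting replicate 2 (-0.99) and that of Ehd4 under quantile normalization (-0.985). The list's drought changes differed between booting and panicle elongation by 5-fold for 1 gene upwards, PRR37, and 1 downwards, LUX (2.54%), and between booting and tillering for 0 of 30 by limma and by the unadjusted p with the same fold (1.09%). At 2-fold these counts were 5 upwards and 3 downwards (14.3%) and 3 upwards and 1 downwards (6.99%).

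The probe sets most like Hd3a were sought over the log2 values of all 36 arrays by Pearson's r, as a description. The arrays share tissues, stages and drought, so they are not independent points. Of all rice probe sets 1 had an r over 0.9 and 299 over 0.8. The highest, Os.15230.1.S1_at (r = 0.93, and 0.92 over the 18 leaf arrays), has no gene in the tables used here. It read 159, 207 and 87.5 in control leaves at tillering, 637, 1311 and 784 at panicle elongation, then 723, 476 and 773 by booting, with 15.6, 23.2 and 17.4 in drought leaves of panicle elongation and 18.2, 35.3 and 22.1 in those of booting. Its drought changes were -1.78 ± 0.29 in tillering leaves, -5.56 ± 0.29 in panicle elongation leaves and -4.73 ± 0.29 in booting leaves, and unlike Hd3a its control level at booting did not lie above that at panicle elongation. The next 2, OsAffx.25841.1.S1_at and OsAffx.12960.1.S1_at (r = 0.90 and 0.89), also had no gene and changed by -1.42 and -0.99 in booting leaves.

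Among 1827 probe sets with a gene symbol and group means spanning 2 or more on the log2 scale, the most like Hd3a was OsPHO1;3, a phosphate transporter family gene (r = 0.84), followed by the peptide deformylase OsPDF1A (0.82), the Rubisco small subunit OsrbcS (0.82), the zinc finger homeodomain gene OsZHD1 (0.81) and the ribosomal protein gene CL27 (0.81). Both probe sets of the protein phosphatase 2C gene OsPP2C07 (0.80 and 0.80) and the adenylosuccinate synthetase gene PURA2 (0.80) came next. OSA15, also named PSAG (0.79), and the arginine methyltransferase gene PRMT3 (0.79) completed the 10. Over the 18 leaf arrays alone r was 0.71 to 0.82 for these 10, and without the array that stood apart it was 0.77 to 0.88. None of the 10 was as wide in range as Hd3a, whose group means spanned 6.51 on the log2 scale. The OsrbcS probe set is another of the gene that served as a leaf marker. Of the 30 flowering genes DTH8 was the most like Hd3a (r = 0.73), with PRR37 (0.54) and OsMADS56 (0.51) the others over 0.5.

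**Figure D4:**
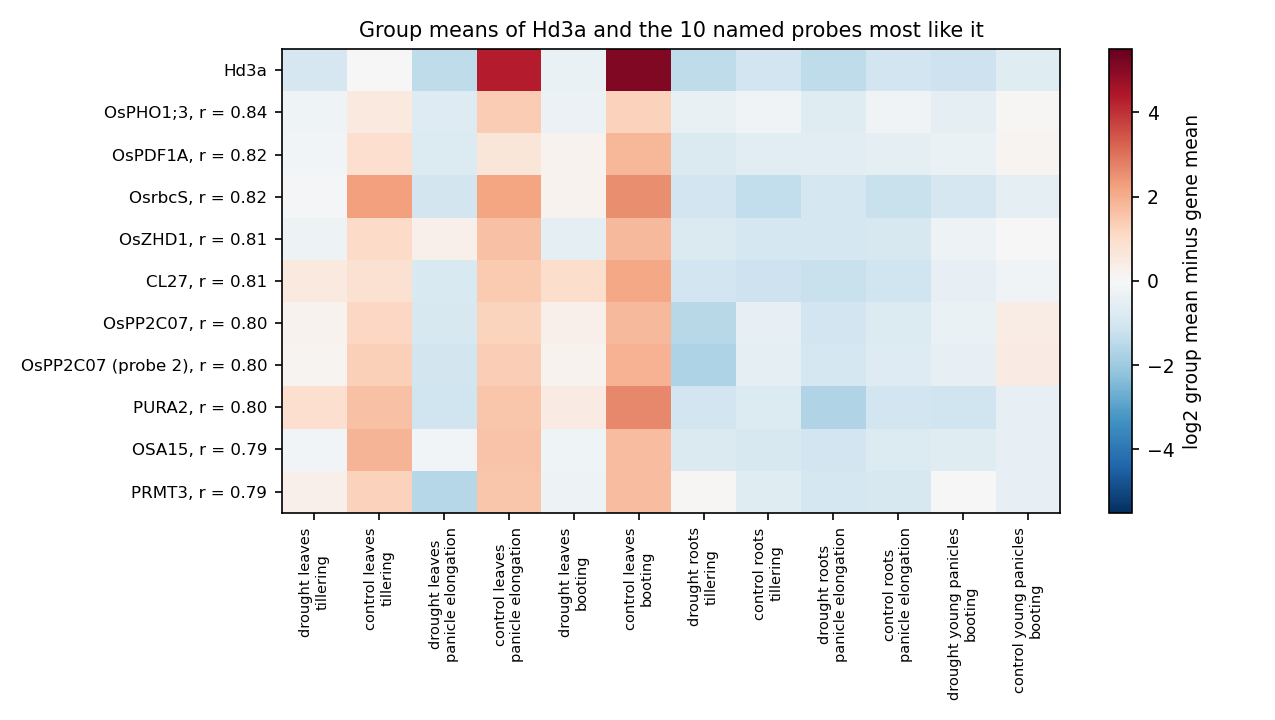
Group means (log2 intensity, each row less its own mean over the 12 groups, red higher and blue lower) of Hd3a and the 10 named probe sets most like it, with r over 36 arrays; groups are paired with drought left of control. All rows are higher in control leaves of booting than in roots, and the Hd3a row spans 6.51, more than any other.

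The genes beside Hd3a on its chromosome were read as well. Of the 10 genes nearest in the RefSeq assembly ASM3414082v1, used here for gene order alone, 5 had a probe set, with r to Hd3a between -0.56 and 0.43. Their drought changes were -2.59 to 0.66 in tillering leaves, where 1 of the 5 was called at 5-fold (1.75% of all probe sets), -1.64 to 0.65 in panicle elongation leaves, where 1 was called at 2-fold (22.3%), and -0.91 to 0.97 in booting leaves, none reaching 2-fold. In the other tissues 1 was called at 2-fold in tillering roots (10.4%), 2 in panicle elongation roots (10.2%) and 2 in young panicles (10.3%).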

How the data were processed

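Total RNA of leaves, roots and young panicles was hybridised to the Affymetrix rice genome array, 36 arrays in 12 groups of 3. Per the labels and methods, the authors read the scans with GCOS 1.4 and normalized the arrays to an invariant set of probe sets in dChip; the dChip version and its handling of mismatch probes are not given in the sources used here. The deposited values are linear intensity per probe set, and 0 columns were left unmapped. No reference sequence was used.

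The 187 control probe sets were left out, 885 values below 1 were raised to 1, and log2 was taken. One limma model (limma 3.58.1, R 4.3.3) with a mean per group was fitted to 57194 probe sets (24 residual degrees of freedom), with Benjamini-Hochberg adjustment over all of them and a call at an adjusted p under 0.05 and 5-fold. The script was tested on simulated data. No p is given for Hd3a, which was chosen for its pattern, and likewise none for likeness. The members and lists were chosen with earlier results of these data known. Genes were matched by symbol, synonym or locus: 22436 probe sets matched 1 gene, 95 several and 34663 none. The list's core genes are named, others where called or to illustrate a role, by the probe set with the highest mean. The most like genes are the 10 with the highest r among those with a symbol. Stated replicates are individual plants, and the number of arrays limits the precision. Groups of 3 cannot give an exact permutation p below 0.1. Alternatives covered floors, normalization, the fold minimum, probe choice, a filter on dim probe sets, the variance trend, a replicate block, the groups alone and each array left out.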

Additional observations from a re-analysis of the deposited data

Results flagged for a closer look

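The drought change of 2 flowering genes differed between the leaf stages by the test of the difference itself. For PRR37 the drought change at booting less that at panicle elongation was 2.42 ± 0.34 (log2, limma adjusted p = 3.99e-06). Its drought leaves lay below every control leaf at panicle elongation and overlapped with them at booting. By its other probe set the difference was 0.92 ± 0.25 (adjusted p = 0.00743), under 2-fold, and drought leaves were below every control leaf at booting as well. The difference passed 5-fold with all arrays and fell to between 2.08 and 2.32 without any 1 of 3 arrays (drought panicle elongation replicate 2 and control booting replicates 1 and 2), with the adjusted p under 0.05 each time. For LUX the difference was -2.58 ± 0.86 (adjusted p = 0.0273), and without control replicate 2 of panicle elongation, whose LUX reading of 70.8 stood far below the others, it was -1.28 (adjusted p = 0.0815). It also missed the adjusted threshold without drought replicate 3 of panicle elongation (-2.47, adjusted p = 0.0574) or drought replicate 2 of booting (-2.53, adjusted p = 0.0526). No explanation was tested for either.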

How the results depend on the processing

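The Hd3a differences kept their sign under every alternative that gave a value other than 0, and their sizes in low groups depended on how low values were treated. With 16 added to each value they were -4.83 in panicle elongation leaves, -4.92 in booting leaves, -0.18 in tillering roots and -0.19 in panicle elongation roots. With a floor at the 25th percentile they were -5.04 in panicle elongation leaves, 0 in roots of either stage and -0.093 in young panicles. Leaving out 1 array gave -1.07 to -0.59 in tillering leaves, -0.40 to -0.29 in tillering roots, -5.86 to -5.65 in panicle elongation leaves, -0.42 to -0.30 in panicle elongation roots, -5.82 to -5.23 in booting leaves, -0.60 to -0.36 in young panicles, 4.17 to 4.66 for the first control step and 0.65 to 0.87 for the second.

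The counts of 30 flowering genes moved with the fold minimum. At 2-fold, tillering leaves had 5 calls, tillering roots 6, panicle elongation leaves 7, panicle elongation roots 5, booting leaves 5 and young panicles 1, the control steps 3 and 7, and the differences between stages 8 (booting minus panicle elongation) and 4 (booting minus tillering). With no fold minimum these were 11, 13, 18, 14, 11, 10, 4, 17, 11 and 7. The share of all probe sets called with no fold minimum was not counted, so these last counts cannot be set against it. Counting any probe set of a gene gave 1 in tillering leaves, 2 for the first control step and 2 for booting minus tillering. With 16 added, panicle elongation leaves had 0 calls, and quantile normalization left 1 for booting minus panicle elongation. Fitted on the compared groups alone, the second control step had 0 calls and booting minus panicle elongation 1. Leaving out 1 array gave 3 to 4 calls in panicle elongation leaves, 1 to 2 for the second control step (1 without control replicate 2 of panicle elongation), 1 to 2 for booting minus panicle elongation and 0 to 1 for booting minus tillering. The cause of these shifts was not tested, apart from the looser minimum itself.

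The study describes a split-plot with 3 blocks, but whether replicate numbers follow the blocks is not given in the sources used here. Correlations of same-numbered deviations ran from -0.17 to 0.42, and in no comparison were all 3 over 0.1. All 3 were positive in tillering leaves (0.08 to 0.31), tillering roots (0.09 to 0.42) and booting leaves (0.05 to 0.07), so some pairing remains possible. With the replicate number as a block the Hd3a difference stayed -5.45 in booting leaves, and the list had 2 calls in panicle elongation leaves, 0 for either control step and 1 for booting minus panicle elongation.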
